A study of Mus musculus with 19 samples.

Results

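Chemokines are small secreted proteins, and their receptors sit on the cells they attract; they are described here in fat from around the gonads of C57BL/6 mice made to gain weight by 2 models. Members were gene rows whose symbol is Ccl, Cxcl, Ccr or Cxcr with a number, together with Cx3cl1, Cx3cr1, Xcl1 and Xcr1. They came to 54 of the 24348 genes in the count tables: 24 CC ligands, 15 ligands of the CXC, CX3C and C classes, and 15 receptors. The naming uses no measured value, although it was chosen with earlier results of these data known. Libraries came from mice of the Ensure model after 24 hours without feeding (labelled OIOneg, here Ensure fasted, n = 5), mice of that model fed and at peak weight (OIO, Ensure fed, n = 6), mice on the 60% high-fat diet after 24 hours without feeding (ALOneg, HFD fasted, n = 4) and mice on that diet fed and at peak weight (ALO, HFD fed, n = 4). All groups share the strain, the depot and weight gain, so no lean group stands beside them. The labels give neither the age of the mice, nor how Ensure was given, nor whether every library is its own animal; the spread behind each p-value may therefore be partly technical.

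Chemokines bind receptors coupled to G proteins on leukocytes and draw the cells along a gradient. In fat, CC ligands such as Ccl2 are known for recruiting monocytes that become macrophages, Cxcl13 for organising B cells in lymphoid clusters of visceral fat, and Ccr7 for guiding dendritic cells and T cells towards lymph nodes. Many CC ligand genes lie side by side in clusters in the mouse genome, which bears on how their levels are read together.

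Depth was 12.82 to 22.55 M gene counts per library, and 3 counts, the floor used for a gene at 0, equal 0.124 to 0.210 counts per M (CPM, scaled by TMM factors). Such floors cover counting error only. Lane, which the labels give, nearly coincided with diet: all 8 HFD libraries and Ensure fed 18 were read in lane 7, and the other Ensure libraries in lanes 5 and 6. A fit with lane as a term therefore separates lane from diet through Ensure fed 18 alone. Within the Ensure model lane also went partly with fasting. Ensure fasted 2, 5, 7 and 8 were in lane 5 and Ensure fasted 17 in lane 6. Ensure fed 1 was in lane 5, and Ensure fed 9, 10, 12 and 16 were in lane 6. In 5 libraries (Ensure fasted 2 and 5, Ensure fed 10 and 12, HFD fasted 24) the summed epididymis and testis markers were above 100 CPM, at 190 to 9905 CPM, whereas the other 14 had at most 81.7 CPM. The adipocyte gene Adipoq was at 1112 CPM or more in every library. Summed markers of lipid-associated macrophages were 122 to 1003 CPM in Ensure fasted and 117 to 237 CPM in Ensure fed libraries, against 530.2 to 13290 CPM (HFD fasted) and 800.5 to 2483 CPM (HFD fed). Summed macrophage markers overlapped, at 951 to 4644 CPM and 1642 to 3108 CPM with Ensure, against 1361 to 5676 CPM and 1727 to 3113 CPM with HFD, fasted and fed in each case.

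Of the 54 members, 38 had enough counts to be tested: 15 CC ligands, 11 other ligands and 12 receptors. Another 10 fell below the filter, and 6 had no count in any library. The 6 were Ccl20, Ccl21a, Ccl21b, Ccl21c, Ccl27b and Ccl28. The Ccl21 and Ccl27 genes have near-identical copies, and reads that match several places are not counted, so a 0 there does not measure their level. Among the 10, Cxcl5, a neutrophil attractant, reached 20 counts in Ensure fasted 17 and had 82 counts over all libraries, and Ccr4, the receptor of Ccl17 and Ccl22, reached 8 counts in HFD fasted 24. The other 8 (Ccl1, Ccl19, Ccl26, Cxcl15, Cxcl17, Cxcl3, Ccr8 and Cxcr1) had at most 5 counts in any library.

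Per kilobase of the longest coding transcript, Ccl6 was the most abundant member over the 19 libraries, at 187 CPM per kb. Ccl8 (105 CPM per kb), Ccl11 (79.9), Ccl9 (63.1), Cxcl12 (49.8), Cxcl13 (35.2) and Ccl2 (26.8) came next on this scale. Receptors were lower: Cxcr4 led with 9.61 CPM per kb, before Ccr1 (4.34) and Cx3cr1 (2.24), and Ccr9 was last at 0.109. These are mean levels over all groups, and the order differs between them. Ccl8 was at 118 CPM per kb in Ensure fasted and 191 in Ensure fed libraries, where it stood above Ccl6 (178), against 35.6 (HFD fasted) and 27.7 (HFD fed), below Ccl11, Ccl9 and Cxcl12 there. Cxcl13 was at 44.7 CPM per kb in Ensure fasted and 67.9 in Ensure fed libraries, against 6.91 (HFD fasted) and 2.47 (HFD fed), below Ccl2 in both HFD groups. The plot of all tested members by library shows most rows varying as much inside a group as between groups.

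**Figure D1:**
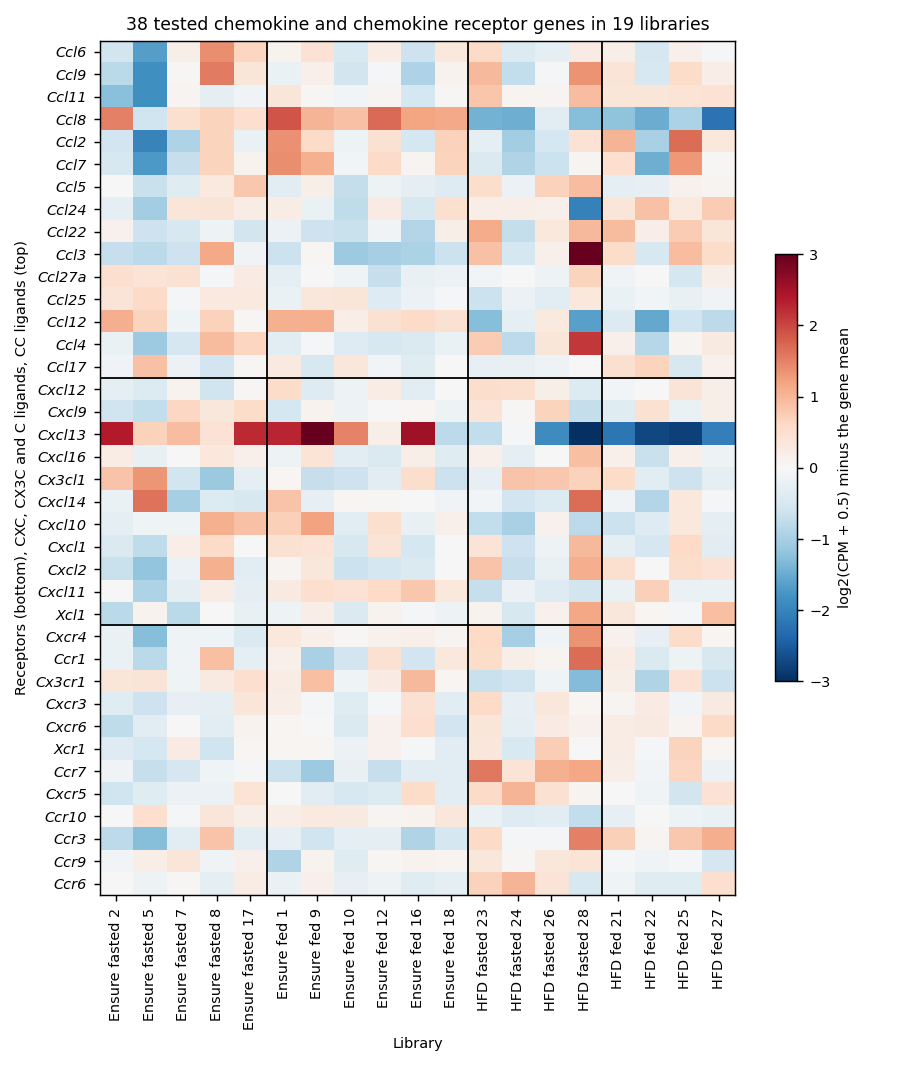
Levels of the 38 tested members (rows) in the 19 libraries (columns, in 4 blocks by group) as log2(CPM + 0.5) minus the gene's mean over libraries, red above and blue below the mean. Ccl8 and Cxcl13 are high in most Ensure libraries and low in most HFD libraries, and Ensure fasted 5 is low and HFD fasted 28 high for many members.

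The first question is whether the 2 models of weight gain differ in these genes. Among fed libraries, 2 of 38 members passed edgeR's quasi-likelihood test at an adjusted p under 0.05, both higher with Ensure: Ccl8 and Cxcl13. Over all 16015 genes tested 4.26% passed, and 2.09% were higher with Ensure, so the members' count is near the background. Among fasted libraries 2 of 38 passed, Ccl8 higher and Ccr7 lower with Ensure, beside 2.82% of all genes (1.63% higher and 1.19% lower). At an unadjusted p under 0.05 there were 8 members among fed and 13 among fasted libraries, beside 18.6% and 20.3% of all genes. The median log2 fold change of the members, Ensure over HFD, was -0.13 among fed and -0.29 among fasted libraries, beside -0.04 and 0.02 over all genes. With lane as a term in the fit no member passed in either comparison, and of all genes 2 passed among fed and 0 among fasted libraries.

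**Figure D2:**
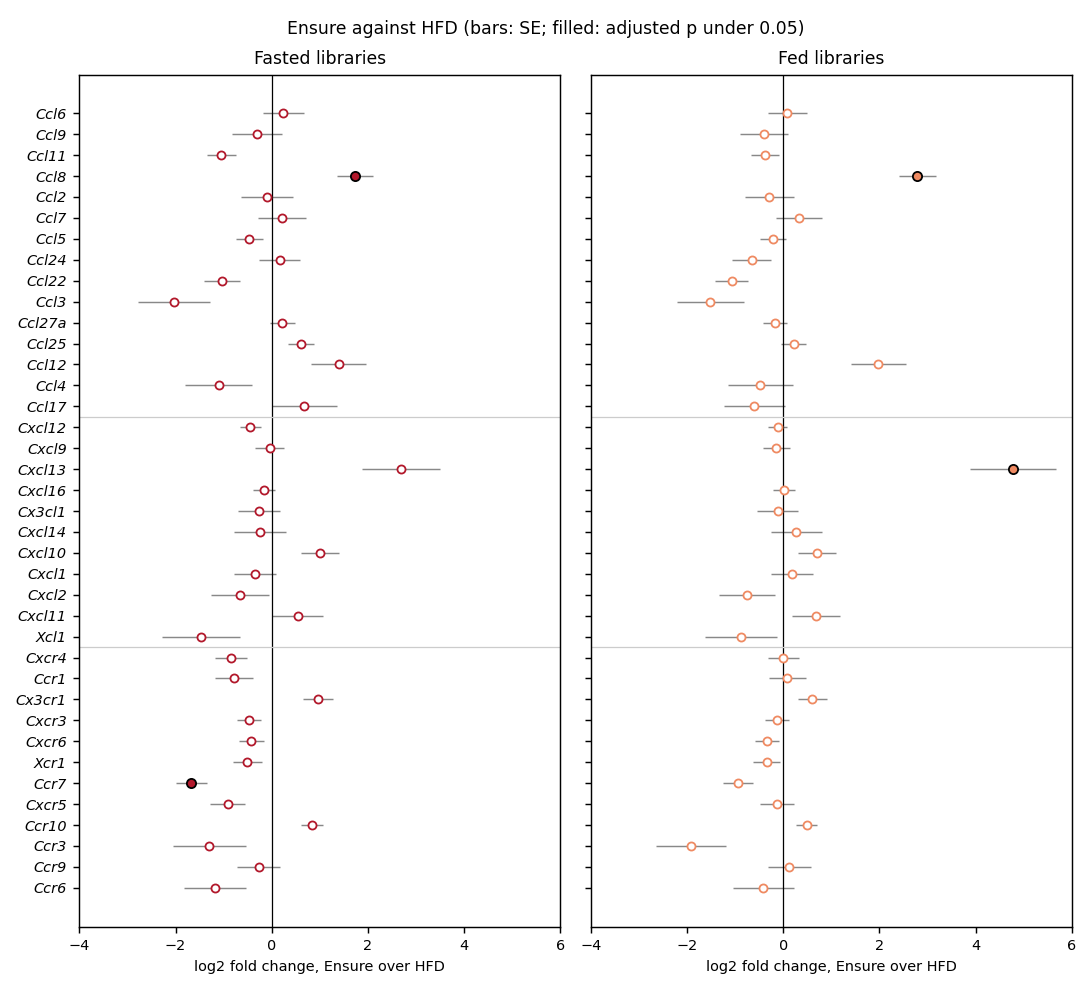
Log2 fold change of Ensure over HFD for the 38 tested members, fasted libraries on the left and fed libraries on the right; whiskers are SE and filled points passed at an adjusted p under 0.05. Ccl8 stands right of 0 in both panels, Cxcl13 at 4.77 among fed libraries, and Ccr7 left of 0, at -1.67 among fasted libraries.

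Ccl8 encodes a ligand of the monocyte chemoattractant group that in mice acts through Ccr8. Its level was several times higher in Ensure fat, fed or fasted. Values below follow the library order 2, 5, 7, 8 and 17 for Ensure fasted, 23, 24, 26 and 28 for HFD fasted, and 21, 22, 25 and 27 for HFD fed libraries. Ccl8 stood at 109, 25, 53, 60.6 and 53.9 CPM in Ensure fasted libraries, against 13.9, 13.4, 30.1 and 15.3 CPM in HFD fasted libraries. Fed Ccl8 levels lay between 70.4 and 141 CPM (median 86.1) with Ensure, against 16.2, 13.3, 19.4 and 7.76 CPM with HFD. The fed groups did not overlap, and among fasted libraries only the lowest Ensure library, 5, lay below the highest HFD library, 26. The log2 fold change of Ensure over HFD was 2.79 ± 0.39 (SE), adjusted p = 0.00109, among fed libraries and 1.72 ± 0.38 (SE), adjusted p = 0.0217, among fasted libraries. The fed call held without any 1 library. The fasted call was lost without HFD fasted 23 or 28, where the adjusted p reached at most 0.0769, and in a fit of the fasted groups alone (adjusted p = 0.260). Within lane 7, Ensure fed 18 had 84.8 CPM, beside 7.76 to 30.1 CPM in the 8 HFD libraries, and with lane as a term the log2 fold change was 2.58 among fed libraries (adjusted p = 0.382). Its receptor gene Ccr8 had at most 4 counts in any library. In whole tissue, more cells of a type and more RNA per cell cannot be told apart. Beside Ccl8, summed stromal markers were 3648 to 9228 CPM in Ensure fasted and 4337 to 7420 CPM in Ensure fed libraries, against 2483 to 3576 CPM (HFD fasted) and 2291 to 3679 CPM (HFD fed). Of these 6 stromal markers, the collagen genes Col1a1 and Col3a1 were higher with Ensure in both comparisons and Pi16 was higher among fasted libraries, whereas Pdgfra was lower among fed libraries (log2 fold change -0.98), where the median of the 6 was -0.01. Summed mast cell markers were lower with Ensure without overlap, at 27.0 to 70.6 CPM in Ensure fasted and 35.8 to 49.6 CPM in Ensure fed libraries, against 82.8 to 456 CPM (HFD fasted) and 89.0 to 230 CPM (HFD fed), and 4 of 5 passed in both comparisons (Cpa3, Mcpt4, Cma1 and Tpsb2). Of 5 neutrophil markers, S100a9 was higher with Ensure in both comparisons and Retnlg among fasted libraries; their sums were 16.1 to 145 CPM in Ensure fasted and 38.6 to 60.4 CPM in Ensure fed libraries, against 9.56 to 56.9 CPM (HFD fasted) and 13.9 to 42.8 CPM (HFD fed). Summed T cell markers were 53.1 to 80.6 CPM in Ensure fed libraries, against 36.9 to 43.6 CPM in HFD fed libraries. Of these 8 T cell markers only Cd4 passed (log2 fold change 2.40), and the median of the 8 was -0.26, so most did not follow the sum. The part of these markers, and of the lipid-associated macrophage markers above, in the diet differences was not tested.

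Ccl12, a mouse monocyte attractant whose gene lies next to Ccl8, had the same direction without passing. Ccl12 stood at 3.85, 2.75, 1.39, 2.83 and 1.62 CPM in Ensure fasted libraries, against 0.355, 1.22, 2.01 and 0.164 CPM in HFD fasted libraries. Fed Ccl12 levels lay between 1.85 and 3.85 CPM (median 2.46) with Ensure, against 1.04, 0.21, 0.863 and 0.697 CPM with HFD. The fed groups did not overlap, and the fasted groups did. Its log2 fold change was 1.98 ± 0.58 (SE), adjusted p = 0.061, among fed libraries and 1.39 ± 0.58 (SE), adjusted p = 0.188, among fasted libraries. A fit of the fed groups alone gave an adjusted p of 0.00815. In that fit 19.8% of all genes passed, and among the members also Ccl8, Cxcl13, Ccl22, Ccl3 and Ccr3.

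The stretches of 250 bases before the start of Ccl8, of its neighbour Ccl12 and of Cxcl13 are shown because these are the ligand genes with the largest positive differences between the diets; they are from RefSeq on GRCm38.p6, a later build than the mm9 of the counts, with the letters TATAAA in capitals.
Ccl8 promoter, chr11:82114935-82115184, plus strand: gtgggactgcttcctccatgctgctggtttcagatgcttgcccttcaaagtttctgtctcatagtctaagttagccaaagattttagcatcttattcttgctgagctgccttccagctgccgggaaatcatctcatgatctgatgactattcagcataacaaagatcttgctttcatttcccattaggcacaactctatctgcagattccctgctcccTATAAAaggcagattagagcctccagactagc
Ccl12 promoter, chr11:82101595-82101844, plus strand: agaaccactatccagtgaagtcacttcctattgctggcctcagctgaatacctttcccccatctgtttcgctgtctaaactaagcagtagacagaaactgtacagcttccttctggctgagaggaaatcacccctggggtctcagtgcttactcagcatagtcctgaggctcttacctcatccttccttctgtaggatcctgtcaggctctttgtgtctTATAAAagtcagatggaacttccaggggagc
Cxcl13 promoter, chr5:95956689-95956938, plus strand: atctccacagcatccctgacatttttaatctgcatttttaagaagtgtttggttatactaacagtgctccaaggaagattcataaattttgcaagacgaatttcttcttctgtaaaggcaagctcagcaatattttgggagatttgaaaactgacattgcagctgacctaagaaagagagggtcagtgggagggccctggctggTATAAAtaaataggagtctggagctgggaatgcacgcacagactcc
The letters TATAAA begin 32 bases before the start of Ccl8, 31 before that of Ccl12 and 46 before that of Cxcl13, and 12.4% of 32851 mouse promoters of this length hold them on either strand. None of the 3 stretches holds the kappa-B motif, the AP-1 motif TGANTCA, the GAS motif TTCNNNGAA or the ISRE core GAAANNGAAA on either strand, beside 3.9%, 6.75%, 7.02% and 2.98% of all promoters. A match is only a match of letters, and its absence covers this window alone. Ccr7 had no entry in that table, and 39 of the 54 members had one.

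Cxcl13 encodes the ligand of Cxcr5 and attracts B cells. Its difference between the diets was the largest among the 38 tested members. Cxcl13 stood at 90.5, 28, 32.9, 23.3 and 82.2 CPM in Ensure fasted libraries, against 10.05, 16.3, 4.23 and 1.15 CPM in HFD fasted libraries. Fed Cxcl13 levels lay between 9.69 and 203 CPM (median 67.4) with Ensure, against 3.4, 2.15, 2.03 and 3.77 CPM with HFD. Neither pair of groups overlapped, although the Ensure fed libraries were spread widely. The log2 fold change of Ensure over HFD was 4.77 ± 0.90 (SE), adjusted p = 0.00665, among fed libraries, a call that held without any 1 library. Among fasted libraries it was 2.69 ± 0.81 (SE), adjusted p = 0.0785, which did not pass. In lane 7, Ensure fed 18 had 9.69 CPM, the lowest of its group, beside 2.03 to 3.77 CPM in HFD fed libraries. With lane as a term the log2 fold change was 1.76 among fed libraries and -0.30 among fasted libraries, both with adjusted p of 1.00. Voom with quality weights gave 3.51 among fed libraries (adjusted p = 0.0523).

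Cxcr5, the receptor carried by B cells, had no call between the diets. Cxcr5 stood at 0.77, 1, 1.2, 1.19 and 2.03 CPM in Ensure fasted libraries, against 2.33, 3.39, 2.14 and 1.53 CPM in HFD fasted libraries. Fed Cxcr5 levels lay between 0.872 and 2.33 CPM (median 1.03) with Ensure, against 1.41, 1.26, 0.812 and 2.09 CPM with HFD. Its log2 fold change of Ensure over HFD was -0.92 ± 0.37 (SE), adjusted p = 0.173, among fasted libraries and -0.14 ± 0.35 (SE), adjusted p = 0.912, among fed libraries. Summed B cell markers were 11.8 to 23.7 CPM in Ensure fasted and 9.94 to 24.9 CPM in Ensure fed libraries, against 29.9 to 54.4 CPM (HFD fasted) and 13.8 to 36.5 CPM (HFD fed). Within groups, Cxcl13 and these markers varied together (Pearson r = 0.593, given below). The part of B cells in the diet difference of Cxcl13 was not tested. Lymphoid tissue markers summed to 7.78 CPM or less in every library, and Glycam1, a marker of lymph node vessels, was at 0 in 15 of 19. Summed mesothelial markers overlapped among fed libraries, at 110 to 194 CPM with Ensure, against 106 to 194 CPM with HFD.

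**Figure D3:**
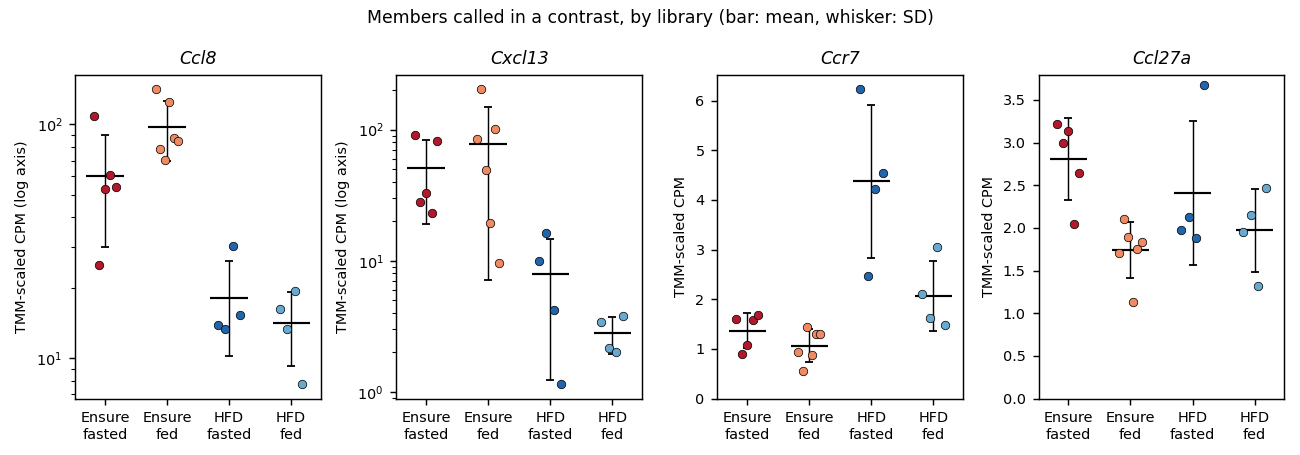
TMM-scaled CPM of the 4 members that passed in any comparison, each point a library, with mean (bar) and SD (whisker) per group; the axes of Ccl8 and Cxcl13 are logarithmic. Ensure fed libraries lie at 70.4 to 141 CPM for Ccl8, above every HFD library, and all HFD fasted libraries lie above every Ensure library for Ccr7.

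Ccr7, the receptor that brings mature dendritic cells and T cells to lymph nodes, was the receptor that passed between the diets. Ccr7 stood at 1.61, 0.9, 1.08, 1.58 and 1.67 CPM in Ensure fasted libraries, against 6.24, 2.48, 4.23 and 4.55 CPM in HFD fasted libraries. Fed Ccr7 levels lay between 0.564 and 1.44 CPM (median 1.12) with Ensure, against 2.11, 1.63, 3.05 and 1.49 CPM with HFD. Both pairs of groups were separate, with Ensure lower. The log2 fold change was -1.67 ± 0.33 (SE), adjusted p = 0.0132, among fasted libraries, a call that held without any 1 library. Among fed libraries it was -0.95 ± 0.31 (SE), adjusted p = 0.0939. In a fit of the fasted groups alone the adjusted p was 0.176, and with lane as a term the log2 fold change was -1.19 (adjusted p = 1.00). The Ccr7 ligand Ccl19 had 1 count in all libraries together and Ccl21a none, a 0 that does not measure the level of Ccl21a, as said above. Dendritic cell markers summed to 30.2 to 50.1 CPM in Ensure fasted libraries, against 45.2 to 51.2 CPM in HFD fasted libraries, and T cell markers to 43.7 to 88.3 CPM, against 38.9 to 91.4 CPM. The median log2 fold changes of these lists were -0.32 and -0.63, with 0 markers passing. B cell markers summed to 11.8 to 23.7 CPM, against 29.9 to 54.4 CPM, with a median of -1.36 over 7 markers and Cd22 passing. The part of these markers was not tested.

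Ccl6 and Ccl9, rodent ligands of Ccr1 made by macrophages and other myeloid cells, were the most abundant CC ligands in CPM and did not separate the diets. Ccl6 stood at 169, 78.1, 281, 651 and 387 CPM in Ensure fasted libraries, against 369, 187, 206 and 295 CPM in HFD fasted libraries. Fed Ccl6 levels lay between 162 and 335 CPM (median 278) with Ensure, against 280.4, 173, 274 and 241 CPM with HFD. Ensure fasted 5 held the lowest and Ensure fasted 8 the highest Ccl6 level of all 19 libraries. Ccl9 stood at 93, 45.6, 166, 485 and 211 CPM in Ensure fasted libraries, against 323, 98.1, 156 and 414 CPM in HFD fasted libraries. Fed Ccl9 levels lay between 86.4 and 181 CPM (median 150.3) with Ensure, against 214, 117, 238 and 186 CPM with HFD. Ccl9 had the same extremes. The log2 fold changes of Ensure over HFD were 0.24 ± 0.42 (SE) fasted and 0.08 ± 0.40 (SE) fed for Ccl6, and -0.31 ± 0.51 (SE) fasted and -0.41 ± 0.49 (SE) fed for Ccl9.

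Their receptor Ccr1, and the ligand Ccl5, which draws T cells and monocytes, also overlapped between the diets. Ccr1 stood at 9.52, 6.05, 10.3, 21.2 and 9.13 CPM in Ensure fasted libraries, against 16.3, 12.6, 11.7 and 36.3 CPM in HFD fasted libraries. Fed Ccr1 levels lay between 5.39 and 15.5 CPM (median 9.81) with Ensure, against 13.1, 7.99, 9.95 and 7.81 CPM with HFD. HFD fasted 28 was the highest library for Ccr1 and Ensure fasted 8 the next. Ccl5 stood at 6.51, 3.9, 4.94, 8.1 and 11.9 CPM in Ensure fasted libraries, against 9.59, 5.74, 10.9 and 12.8 CPM in HFD fasted libraries. Fed Ccl5 levels lay between 3.8 and 7.44 CPM (median 5.16) with Ensure, against 5.35, 5.47, 7.21 and 6.97 CPM with HFD. Neither passed in any comparison, and the smallest adjusted p between the diets was 0.281, for Ccr1 among fasted libraries. Ccl3 and Ccl4, which attract macrophages and other leukocytes, lay between 0.513 and 20.8 CPM and between 0.150 and 5.53 CPM over the 19 libraries, each highest in HFD fasted 28. Ccl3 had a log2 fold change of -2.03 ± 0.74 (SE), adjusted p = 0.14, among fasted and -1.52 ± 0.71 (SE), adjusted p = 0.255, among fed libraries.

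Ccl2 and Ccl7 attract monocytes. Ccl2 stood at 11.8, 4.1, 9.27, 29.1 and 15.5 CPM in Ensure fasted libraries, against 14.6, 8.52, 12.3 and 24.6 CPM in HFD fasted libraries. Fed Ccl2 levels lay between 12.3 and 47.1 CPM (median 26) with Ensure, against 37.3, 8.88, 59 and 22.6 CPM with HFD. HFD fed 25 held the highest and Ensure fasted 5 the lowest Ccl2 level of the 19 libraries. Ccl7 stood at 9.03, 3.55, 7.77, 20.6 and 13.8 CPM in Ensure fasted libraries, against 9.34, 6.61, 7.99 and 13.7 CPM in HFD fasted libraries. Fed Ccl7 levels lay between 12.2 and 34.9 CPM (median 19.96) with Ensure, against 18.5, 4.31, 32.3 and 13.2 CPM with HFD. Ensure and HFD overlapped for both genes, fasted and fed, and the log2 fold changes were -0.11 ± 0.54 (SE) and -0.29 ± 0.51 (SE) for Ccl2 and 0.22 ± 0.50 (SE) and 0.32 ± 0.48 (SE) for Ccl7, fasted and fed in each case.

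Ccl11 (eotaxin) attracts eosinophils through Ccr3. Ccl11 stood at 33.2, 21.8, 84.9, 65.5 and 73.5 CPM in Ensure fasted libraries, against 142, 84.3, 84.1 and 151 CPM in HFD fasted libraries. Fed Ccl11 levels lay between 55.3 and 103 CPM (median 82.3) with Ensure, against 103, 102, 107 and 108 CPM with HFD. Ensure fasted 2 and 5, both rich in epididymis and testis markers, were the lowest libraries. Ensure fed 10 and 12 and HFD fasted 24, also rich in them, had 75.4, 84.0 and 84.3 CPM. The log2 fold change was -1.05 ± 0.31 (SE), adjusted p = 0.0712, among fasted and -0.39 ± 0.29 (SE), adjusted p = 0.548, among fed libraries. Ccr3 stood at 0.21, 0, 0.482, 1.71 and 0.457 CPM in Ensure fasted libraries, against 1.32, 0.695, 0.683 and 2.96 CPM in HFD fasted libraries. Fed Ccr3 levels lay between 0.155 and 0.528 CPM (median 0.421) with Ensure, against 1.49, 0.788, 1.62 and 2.09 CPM with HFD. Ccr3 was separate among fed libraries, lower with Ensure, with a log2 fold change of -1.92 ± 0.73 (SE), adjusted p = 0.151; several of its Ensure values are at or near the floor of 3 counts. Eosinophil markers summed to 0.513 to 1.64 CPM in Ensure fed libraries, against 0.998 to 2.46 CPM in HFD fed libraries. Ccl24, another ligand of Ccr3, lay between 1.10 and 11.4 CPM and did not pass.

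Ccl22, made by dendritic cells and macrophages, had a log2 fold change of -1.03 ± 0.37 (SE), adjusted p = 0.133, among fasted and -1.08 ± 0.35 (SE), adjusted p = 0.0934, among fed libraries. It lay between 1.34 and 6.85 CPM, and the fed groups did not overlap. Ccl17, which shares its receptor, lay between 0.0659 and 1.05 CPM and overlapped in both comparisons. Ccl25, the ligand of Ccr9 known from thymus and gut, lay between 1.01 and 3.05 CPM and Ccr9 between 0.0587 and 0.877 CPM; neither passed. Ccr10, the receptor of Ccl27 and Ccl28, lay between 0.657 and 2.20 CPM, with Ensure above HFD and no overlap in either comparison. Its log2 fold change was 0.85 ± 0.23 (SE), adjusted p = 0.0538, among fasted and 0.49 ± 0.22 (SE), adjusted p = 0.228, among fed libraries, but the gene overlaps Cntnap1 on the opposite strand, so its reads are uncertain without a known strand setting. In all, 7 of 38 members did not overlap between the fed groups and 3 of 38 between the fasted groups, beside 13.3% and 3.99% of all genes. Among fed libraries these were Ccl8, Cxcl13, Ccl12 and Ccr10 above, and Ccl22, Ccr7 and Ccr3 below; among fasted libraries Cxcl13 and Ccr10 above, and Ccr7 below.

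Cxcl12, a retention signal for leukocytes and progenitors made by stromal cells, had the highest CPM of all members, and its receptor is Cxcr4. Cxcl12 stood at 224, 205, 293, 179 and 282 CPM in Ensure fasted libraries, against 392, 379, 310.0 and 205 CPM in HFD fasted libraries. Fed Cxcl12 levels lay between 207 and 397 CPM (median 257) with Ensure, against 257, 276, 358 and 307 CPM with HFD. Cxcl12 lay between 179 and 397 CPM in all 19 libraries, and the groups overlapped. Cxcr4 stood at 14, 6.4, 14.7, 14.8 and 11.8 CPM in Ensure fasted libraries, against 24.8, 7.82, 14.9 and 41.5 CPM in HFD fasted libraries. Fed Cxcr4 levels lay between 16.5 and 20.3 CPM (median 17.8) with Ensure, against 17.6, 13.5, 23.9 and 16.7 CPM with HFD. Cxcr4 was highest in HFD fasted 28 and lowest in Ensure fasted 5. The log2 fold changes of Ensure over HFD were -0.44 ± 0.21 (SE), adjusted p = 0.249 for Cxcl12, and -0.85 ± 0.34 (SE), adjusted p = 0.172 for Cxcr4 among fasted libraries. Among fed libraries they were -0.12 ± 0.20 (SE) and -0.00 ± 0.33 (SE).

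Cxcl9, Cxcl10 and Cxcl11 are induced by interferons and draw T cells through Cxcr3. Cxcl9 stood at 34.1, 30.6, 80.1, 65.2 and 75.4 CPM in Ensure fasted libraries, against 69.2, 52.8, 82.5 and 31.2 CPM in HFD fasted libraries. Fed Cxcl9 levels lay between 35.6 and 55.4 CPM (median 49.3) with Ensure, against 40.3, 70.5, 44.9 and 58.4 CPM with HFD. Cxcl9 overlapped throughout. Cxcl10 stood at 4.13, 4.6, 4.64, 11.2 and 9.74 CPM in Ensure fasted libraries, against 2.89, 2.35, 5.68 and 2.74 CPM in HFD fasted libraries. Fed Cxcl10 levels lay between 3.9 and 12.4 CPM (median 6.56) with Ensure, against 3.11, 3.78, 6.5 and 4.04 CPM with HFD. The log2 fold change of Cxcl10 was 1.00 ± 0.40 (SE), adjusted p = 0.177, among fasted and 0.70 ± 0.39 (SE), adjusted p = 0.366, among fed libraries, and its gene overlaps Art3 on the opposite strand. Cxcl11 stood at 0.56, 0.05, 0.361, 0.725 and 0.355 CPM in Ensure fasted libraries, against 0.152, 0.435, 0.299 and 0.219 CPM in HFD fasted libraries. Fed Cxcl11 levels lay between 0.763 and 1.34 CPM (median 0.949) with Ensure, against 0.414, 1.21, 0.406 and 0.418 CPM with HFD. Cxcl11 was lower in every fasted Ensure library than in any fed one. Cxcr3 stood at 2.45, 2, 2.71, 2.64 and 4.41 CPM in Ensure fasted libraries, against 5.18, 2.74, 4.36 and 3.51 CPM in HFD fasted libraries. Fed Cxcr3 levels lay between 2.46 and 4.76 CPM (median 3.25) with Ensure, against 3.52, 4.05, 3.1 and 4.09 CPM with HFD. Between the diets the smallest adjusted p of these 4 genes was 0.177, for Cxcl10 among fasted libraries.

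Cxcl16, a membrane-bound ligand that is also a scavenger receptor, binds Cxcr6 on T cells. Cxcl16 stood at 33.5, 24.5, 28.4, 35.8 and 31.9 CPM in Ensure fasted libraries, against 31.9, 23.4, 28.9 and 53.8 CPM in HFD fasted libraries. Fed Cxcl16 levels lay between 21.2 and 38.5 CPM (median 24.4) with Ensure, against 31.8, 17.8, 31.7 and 25.9 CPM with HFD. The groups overlapped. Cxcr6 stood at 1.68, 2.45, 3.19, 2.44 and 3.45 CPM in Ensure fasted libraries, against 4.26, 2.52, 3.84 and 3.56 CPM in HFD fasted libraries. Fed Cxcr6 levels lay between 1.99 and 4.76 CPM (median 3.29) with Ensure, against 3.77, 3.94, 3.4 and 4.97 CPM with HFD. The log2 fold changes of Ensure over HFD were -0.16 ± 0.23 (SE) fasted and 0.02 ± 0.23 (SE) fed for Cxcl16, and -0.42 ± 0.27 (SE) fasted and -0.34 ± 0.25 (SE) fed for Cxcr6. Both genes overlap another gene on the opposite strand.

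Cx3cl1 (fractalkine) is tethered to endothelial and epithelial cells, and its receptor Cx3cr1 marks monocytes and some macrophages. Cx3cl1 stood at 26.4, 36.2, 9.58, 6.32 and 11.6 CPM in Ensure fasted libraries, against 12, 26.4, 25.5 and 23.3 CPM in HFD fasted libraries. Fed Cx3cl1 levels lay between 8.72 and 20.8 CPM (median 10.2) with Ensure, against 21.1, 11.2, 9.14 and 11.9 CPM with HFD. Ensure fasted 2 and 5 had the top values of their group, and both are rich in epididymis and testis markers. Ensure fed 10 and 12, also rich in them, had 9.13 and 11.3 CPM. Summed tract epithelium markers (Pax8, Cdh16, Mmp7 and Dcdc2a) were 220.5 to 288 CPM in Ensure fasted 2 and 5, Ensure fed 16, HFD fasted 24 and 26 and HFD fed 21. Cx3cl1 was at 20.8 to 36.2 CPM in those libraries, but also at 23.3 CPM in HFD fasted 28, where the sum was 1.37 CPM. The part of these markers was not tested. Cx3cr1 stood at 12, 12.2, 8.43, 11.3 and 13.5 CPM in Ensure fasted libraries, against 5.68, 5.95, 8.5 and 3.45 CPM in HFD fasted libraries. Fed Cx3cr1 levels lay between 8.52 and 18.7 CPM (median 11) with Ensure, against 10.5, 4.73, 12.7 and 5.76 CPM with HFD. Cx3cr1 did not pass between the diets, with a log2 fold change of 0.96 ± 0.32 (SE), adjusted p = 0.106, among fasted and 0.60 ± 0.30 (SE), adjusted p = 0.309, among fed libraries. For Cx3cl1 they were -0.27 ± 0.44 (SE) and -0.12 ± 0.42 (SE). In GENCODE M21 the Cx3cr1 gene overlaps Ttc21a and Wdr48 on the opposite strand and Csrnp1, Gorasp1 and Xirp1 on the same strand. The count of Cx3cr1 is therefore uncertain.

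Xcl1, secreted by NK and T cells, binds Xcr1 on cross-presenting dendritic cells. Xcl1 stood at 0, 0.45, 0, 0.395 and 0.254 CPM in Ensure fasted libraries, against 0.457, 0.13, 0.47 and 1.48 CPM in HFD fasted libraries. Fed Xcl1 levels lay between 0.154 and 0.513 CPM (median 0.33) with Ensure, against 0.622, 0.42, 0.355 and 1.16 CPM with HFD. Many of these values are within a few counts of 0. Xcr1 stood at 1.54, 1.35, 2.65, 1.25 and 2.28 CPM in Ensure fasted libraries, against 2.84, 1.43, 3.93 and 2.14 CPM in HFD fasted libraries. Fed Xcr1 levels lay between 1.64 and 2.42 CPM (median 2.16) with Ensure, against 2.61, 2.05, 3.71 and 2.28 CPM with HFD. Neither gene passed in any comparison. Ccr6, which guides lymphocytes towards Ccl20, was as sparse as Xcl1. Ccr6 stood at 0.28, 0.2, 0.301, 0.132 and 0.406 CPM in Ensure fasted libraries, against 0.761, 1.09, 0.513 and 0.0548 CPM in HFD fasted libraries. Fed Ccr6 levels lay between 0.103 and 0.359 CPM (median 0.165) with Ensure, against 0.207, 0.105, 0.102 and 0.604 CPM with HFD. Its log2 fold change of Ensure over HFD was -1.18 ± 0.64 (SE), adjusted p = 0.314, among fasted libraries. Of the remaining CXC ligands, Cxcl1 and Cxcl2, which attract neutrophils, lay between 0.900 and 4.16 CPM and between 0.200 and 2.85 CPM, and Cxcl14, a widely expressed ligand, between 4.40 and 30.8 CPM; none passed.

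The second question is what 24 hours without feeding does. With Ensure 1 of 38 members passed, Ccl27a, which was higher after fasting, while 20.3% of all genes passed and 10.6% were higher. Lane went partly with fasting here, and with lane as a term 0 members and 4.75% of all genes passed. With HFD 0 of 38 passed, beside 1.22% of all genes. At an unadjusted p under 0.05, edgeR gave 3 members with Ensure (36% of all genes) and 2 with HFD (14.8%); DESeq2 passed 2 and 0 members, beside 27.4% and 3.95% of all genes, and voom with quality weights 5 and 3, beside 35.2% and 18.6%. The median log2 fold change of the members, fasted over fed, was 0.04 with Ensure and 0.14 with HFD, beside 0.11 and 0.06 over all genes.

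**Figure D4:**
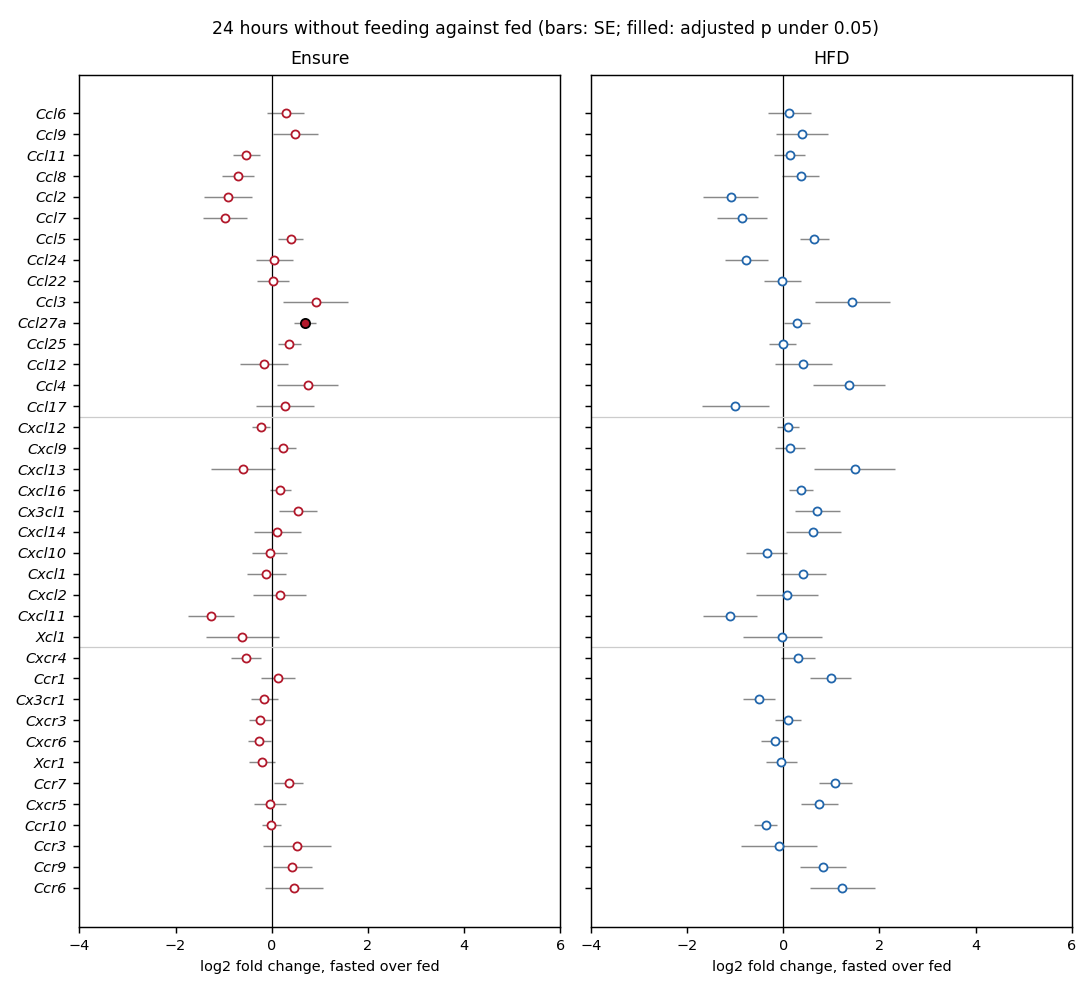
Log2 fold change of fasted over fed for the 38 tested members, Ensure on the left and HFD on the right; whiskers are SE and the filled point passed at an adjusted p under 0.05. Ccl27a at 0.69 with Ensure is the filled point, and Cxcl11, Ccl2 and Ccl7 stand left of 0 in both panels.

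Ccl27a encodes a ligand of Ccr10 best known from skin. Its levels were 3.22, 3, 3.13, 2.04 and 2.64 CPM in Ensure fasted libraries and between 1.14 and 2.1 CPM (median 1.8) in Ensure fed libraries. In HFD fasted libraries they were 1.98, 2.13, 1.88 and 3.67 CPM, against 1.95, 2.15, 1.32 and 2.46 CPM in HFD fed libraries. The Ensure groups overlapped through fasted library 8 alone. The log2 fold change of fasted over fed was 0.69 ± 0.23 (SE), adjusted p = 0.0453, with Ensure and 0.29 ± 0.27 (SE), adjusted p = 0.638, with HFD. The call with Ensure is weak: it was lost when any of 15 of the 19 libraries was left out (adjusted p up to 0.110), without the 5 libraries rich in epididymis and testis markers (log2 fold change 0.48, adjusted p = 0.363), without the filter (adjusted p = 0.0661) and with lane as a term (adjusted p = 0.297). The gene has near-identical copies and touches Il11ra1 on the opposite strand by 8 bases, so its count is uncertain.

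Cxcl11 had a log2 fold change of -1.26 ± 0.48 (SE), adjusted p = 0.0716, with Ensure and -1.12 ± 0.56 (SE), adjusted p = 0.361, with HFD. The Ensure groups did not overlap, at levels of at most 1.34 CPM. Cxcr4 was the other member whose Ensure groups did not overlap, with a log2 fold change of -0.54 ± 0.31 (SE), adjusted p = 0.221. Such separation was seen for 2 of 38 members with Ensure and 2 of 38 with HFD, beside 15% and 8.45% of all genes. With HFD the 2 were Ccr9, at 0.83 ± 0.48 (SE), adjusted p = 0.432, and Ccl24, at -0.77 ± 0.45 (SE), adjusted p = 0.434.

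The monocyte attractants Ccl2 and Ccl7 had negative differences in both diets without passing. Ccl2 had a log2 fold change of -0.91 ± 0.49 (SE), adjusted p = 0.196, with Ensure and -1.09 ± 0.57 (SE), adjusted p = 0.385, with HFD. Ccl7 had -0.96 ± 0.46 (SE), adjusted p = 0.139, with Ensure and -0.86 ± 0.53 (SE), adjusted p = 0.459, with HFD. Ccl8 had -0.70 ± 0.32 (SE), adjusted p = 0.13, with Ensure and 0.36 ± 0.38 (SE), adjusted p = 0.682, with HFD. Ccr7 had the smallest p of the members with HFD, at 1.08 ± 0.34 (SE), adjusted p = 0.148, and was at 0.35 ± 0.30 (SE), adjusted p = 0.409, with Ensure. Ccr1 had 0.99 ± 0.42 (SE), adjusted p = 0.285, with HFD.

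The difference between the 2 fasting responses passed for 0 of 38 members and for 0% of all genes by edgeR. At an unadjusted p under 0.05 there was 1 member, Ccl8, beside 7.71% of all genes, with a difference of -1.06 ± 0.50 (SE), adjusted p = 0.647. DESeq2 passed 0 members, beside 0.406% of all genes, and voom with quality weights 1, also Ccl8, beside 7.31%. The fasting comparisons and the diet comparisons use the same libraries, so their values are not separate results.

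Members varied more between libraries of a group than most genes. The median within-group SD of log2(CPM + 0.5) was 0.50 over the 38 members, beside 0.28 over all genes tested, and 35 of 38 lay above the median gene. Genes were not matched by level. For low members such as Ccr6 (mean 0.310 CPM) counting error and the added 0.5 both bear on the SD. Cxcl13 varied most (1.24), followed by Ccl3 (0.93) and Ccl2 (0.86), while Ccr10 varied least (0.18). Deviations from the group means were then compared with summed cell markers over the 19 libraries for 13 pairs of a member and a cell type, with p from 100000 permutations within groups and Benjamini-Hochberg adjustment over the pairs. Ccl6 followed macrophage markers (Pearson r = 0.859, adjusted p = 0.000520; Spearman rho = 0.814). Cxcr4 also followed them (r = 0.846, rho = 0.777), Ccl5 followed T cell markers (r = 0.761, rho = 0.679), and Cxcl13 followed B cell markers (r = 0.593, rho = 0.589). Cxcr5 followed B cell markers by Pearson (r = 0.624, adjusted p = 0.0320) and not by Spearman (rho = 0.456, adjusted p = 0.207). The other 8 did not pass, among them Ccl8 with macrophage markers (r = 0.164, rho = 0.070), Ccr7 with T cell markers (r = 0.098, rho = -0.056) and Cx3cr1 with macrophage markers (r = -0.032, rho = -0.018). Without the 2 libraries farthest from the median marker sum, r was 0.512 for Cxcl13, 0.592 for Cxcr5, 0.778 for Ccl5 and 0.692 for Cxcr4, and none of these 4 passed with 17 libraries. All values come from the same libraries, whose cell makeup and depth the 2 measures share. In the T cell sum Thy1 weighed most, at 17.1 to 73.9 CPM, and Cd4 reached 21.2 CPM. Cd3d, Cd3e and Cd3g had at most 2.61 CPM. Correlations with that sum therefore follow Thy1 and Cd4 more than the other T cell markers.

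Genes that sit next to each other in a cluster often varied together. Over 16 pairs of tested members within 100 kb of each other, chosen after values were seen, 14 had a positive r after group means were removed, and 8 passed. Pairs of members that are not neighbours were not counted, so no background stands beside these counts. The part of nearness was not tested. Ccl2 with Ccl7 (r = 0.975, rho = 0.981), Ccl9 with Ccl6 (0.947 and 0.923), Ccl3 with Ccl4 (0.910 and 0.951) and Cxcl1 with Cxcl2 (0.822 and 0.837) had the highest values. Ccr1 with Ccr3 (0.770 and 0.670) led the receptors. Ccl12 with Ccl8, the pair with shared direction between the diets, had r = 0.397 and rho = 0.356 (adjusted p = 0.184), and Ccl11 with Ccl12 had r = -0.50. Without the 2 farthest libraries 6 pairs passed, without the 5 tract-rich libraries 4, and in lane 7, with 8 libraries, 1. The 4 highest pairs kept r between 0.737 and 0.985 in these subsets.

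**Figure D5:**
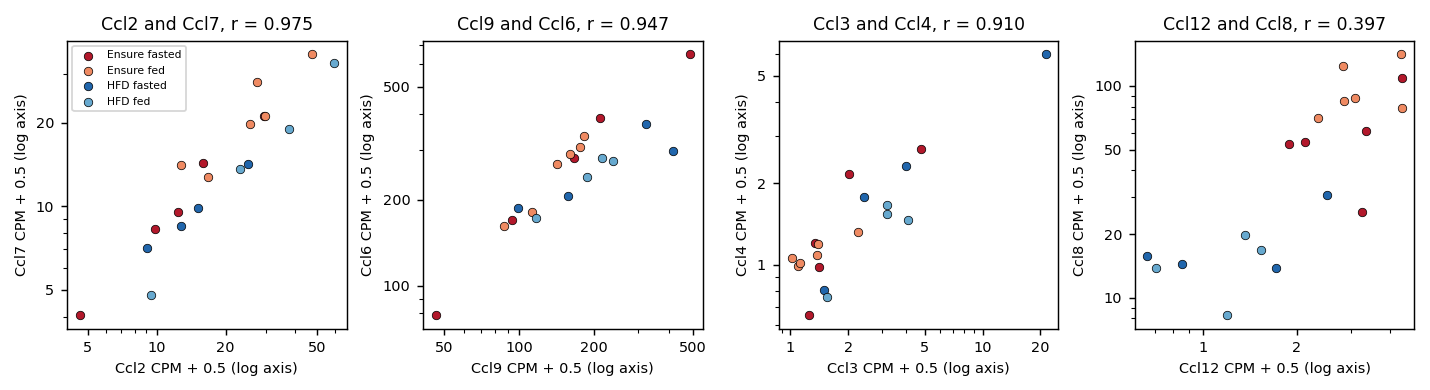
CPM + 0.5 of neighbouring ligand genes in the 19 libraries (log axes, colours by group); r in each title is Pearson's r of log2 values after group means were removed. Ccl2 and Ccl7, Ccl9 and Ccl6, and Ccl3 and Ccl4 lie along a line, and Ccl12 and Ccl8 are spread more widely, with most Ensure libraries above the HFD libraries.

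Other genes of the pathway were read from lists. Of 11 chemokine-like ligands and atypical receptors, 1 passed between the diets: Ccrl2, which binds chemerin, was lower with Ensure, with a log2 fold change of -1.16 among fasted and -0.75 among fed libraries. Over all genes 2.82% passed among fasted and 4.26% among fed libraries. Of 25 genes of chemokine receptor signalling, 0 passed by edgeR in any of the 5 comparisons. At an unadjusted p under 0.05 edgeR gave 5 of them between the diets among fasted libraries and 4 among fed libraries. The shares over all genes were 20.3% and 18.6%, so these counts are near the background. Other tools passed more: DESeq2 passed 2 among fasted and 1 among fed libraries, beside 8.09% and 9.68% of all genes, and voom with quality weights passed 2 and 9, beside 21.3% and 34%. Of 22 tested genes for inducers of chemokines and for adhesion, Selp, the adhesion molecule P-selectin, was higher with Ensure among fed libraries (1.16), and Ltbr, the lymphotoxin receptor that drives Cxcl13 in lymphoid organs, was lower after fasting with Ensure (-0.49). Each was the only call of the list in its comparison, beside 4.26% and 20.3% of all genes. Medians of the 3 lists between the diets lay between -0.22 and 0.14, beside -0.04 and 0.02 over all genes.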

How the data were processed

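The labels' protocols describe RNeasy extraction, poly-A selection, TruSeq library preparation and sequencing on a HiSeq2000. The submitters' processing notes name bcl2fastq 1.8.4, TopHat2 2.1, HTSeq 0.6.1 and the mouse build mm9, while strand setting and annotation are not stated in the sources at hand. The authors deposited raw read counts per gene symbol as whole numbers. Between 13.0 and 17.3% of reads fell outside genes, 0.695 to 0.893% were ambiguous and 20.7 to 27.7% not unique; these lines were kept apart from library sizes. Genes that overlap on opposite strands (among members Ccl2, Ccl25, Ccl27a, Ccr10, Ccr9, Cx3cr1, Cxcl10, Cxcl16, Cxcr5 and Cxcr6) can share or lose reads. Cx3cr1 also overlaps genes on its own strand, which a strand setting would not resolve.

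Groups were taken from the labels. No library repeated another of its group: chi-square per gene was 6.77 to 272 over the 37 pairs of a shared group. Pairs across groups were not compared. edgeR 4.0.16 (R 4.3.3) fitted 4 group means to all 19 libraries, with TMM scaling and filterByExpr (minimum count 10). Quasi-likelihood F tests were adjusted by Benjamini-Hochberg over 16015 genes and called under 0.05, and a standard error is the absolute log2 fold change over the root of F. Values are TMM-scaled CPM. The test was checked on simulated counts. Other settings tried were size factors from DESeq2, unscaled library sizes, no filter, a stricter filter (1 CPM or more in 4 libraries, minimum count 30), DESeq2 1.42.0 itself, limma 3.58.1 voom with quality weights, lane as a term, only the groups compared, each library left out in turn, and all 5 or 8 tract-rich libraries left out. The 8 add those with Cdh16, an epithelial gene, above 25 CPM. Lengths are of the longest coding transcript in GENCODE M21, and promoters are from RefSeq GRCm38.p6; no coordinates of the counts' own build are printed. Some receptor genes that fit the naming are not reported here and are in no count of members. Members and lists were chosen with earlier results of these data known. Values per library are given for members that passed, for the 3 most abundant of each role and for listed ligand and receptor pairs; the others are given by range.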

Additional observations from a re-analysis of the deposited data

Results flagged for a closer look

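In 26 members with values per library, 104 groups of 4 to 6 libraries were examined for a library far from the rest of its group, and 9 were marked; chance marks about 1 in 20 groups. HFD fasted 26 had 30.1 CPM of Ccl8, against 13.4 to 15.3 CPM in the other libraries of its group, and 5.68 CPM of Cxcl10, against 2.35 to 2.89 CPM. HFD fasted 28 had 3.67 CPM of Ccl27a, against 1.88 to 2.13 CPM. Ensure fasted 8 had 21.2 CPM of Ccr1, against 6.05 to 10.3 CPM, and 1.71 CPM of Ccr3, against 0 to 0.482 CPM. Among Ensure fed libraries, 1 had 20.3 CPM of Cxcr4, against 16.5 to 17.9 CPM, 9 had 0.359 CPM of Ccr6, against 0.103 to 0.198 CPM, and 16 had 2.33 CPM of Cxcr5, against 0.872 to 1.41 CPM. HFD fed 22 had 1.21 CPM of Cxcl11, against 0.406 to 0.418 CPM.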

How the results depend on the processing

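Lane limits every diet comparison and, in part, the fasting comparison with Ensure. Ensure fed 18 is the only Ensure library in lane 7, so with lane as a term each diet difference rests on that 1 library. Its Cxcl13 level, 9.69 CPM, was the lowest of its group. With lane as a term 0 members passed in all 5 comparisons, and Cxcl13 among fasted libraries turned to a log2 fold change of -0.30. Scaling by DESeq2 size factors or library size alone and the stricter filter left the counts of called members within 1.5 times. For Ensure fasted against fed, 0 members passed without the filter or with the 5 or the 8 tract-rich libraries left out, beside 14.6%, 7.36% and 5.06% of all genes. DESeq2 passed 2 and voom 5, beside 27.4% and 35.2%. For HFD fasted against fed, 3 passed with voom (18.6% of all genes) and 1 (Cxcl5) without those 8 libraries (5.96%), and the difference of responses gave 1 with voom (7.31%). For Ensure against HFD among fasted libraries, 6 passed with DESeq2, 4 with voom, 7 without the 8 libraries and 0 in a fit of those groups alone, beside 8.09%, 21.3%, 10.5% and 0.00648% of all genes. Among fed libraries 4 passed with DESeq2, 13 with voom and 6 in a fit of those groups alone, beside 9.68%, 34% and 19.8% of all genes; 13 of 38 is near the share over all genes. Leaving out 1 library at a time gave 0 to 3 members for Ensure fasting, beside 14.3 to 27.7% of all genes. It gave 0 for HFD fasting and for the difference, beside 0.14 to 2.52% and 0%. Between the diets it gave 1 to 6 among fasted and 2 to 4 among fed libraries, beside 1.27 to 4.75% and 1.46 to 9.86%. Of correlations, without the 2 farthest libraries, in lane 7 alone and without the 5 libraries, r was 0.512, 0.607 and 0.609 for Cxcl13 with B cell markers, 0.592, 0.585 and 0.619 for Cxcr5 with B cell markers, 0.778, 0.682 and 0.506 for Ccl5 with T cell markers, and 0.692, 0.962 and 0.802 for Cxcr4 with macrophage markers, none of which passed by Pearson; by Spearman, Cxcr4 passed in lane 7 (rho = 0.952, adjusted p = 0.0461). Ccl6 with macrophage markers did not pass in lane 7 (0.873), nor by Spearman without the 5 libraries (rho = 0.741), and Cxcl14 with stromal markers passed without the 5 libraries (0.717). The cause of these shifts was not tested. No paired analysis was possible because the library numbers in the titles differ in every group. Members near the floor of 3 counts, such as Xcl1, Ccr3, Ccr6, Ccr9 and Ccl17, are limited by depth.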
